A study of Mus musculus with 18 samples.

Results

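The 10 genes described here encode enzymes that deal with reactive oxygen and nitric oxide, and the transcription factor that controls many of them. They are Nos2, Sod1, Sod2, Sod3, Cat, Gclc, Gclm, Srxn1, Txnrd1 and Nfe2l2, chosen by symbol out of 21018 genes listed in at least 1 of 3 gene count tables, and all 10 are listed in every table. The question is which of them changed in the liver after IL-1β, an inflammatory cytokine to which hepatocytes respond by making acute-phase proteins. Male C57/B6J mice aged 12 weeks received IL-1β at 20 µg/kg (mice I9579, I9582 and I9583) or saline (mice U9574, U9575 and U9576), and their livers were taken 4 h later. The labels name no genetic change in either group, and according to the study's methods the injection was intraperitoneal and the livers were perfused. Liver RNA of each mouse went into 3 library kits. Pico is a stranded total RNA kit for very small inputs, V4 reads poly(A) RNA without strand, also from very small inputs, and TruSeq reads poly(A) RNA with strand from larger inputs. The values are the deposited gene counts, in reads after resampling to a similar depth within a kit, and every comparison of IL-1β with saline was made within a kit with limma-voom. A gene was called when its p-value, adjusted by the Benjamini-Hochberg method over all genes of the kit, was at most 0.05. Since the kits share 6 mice, their results are not independent of each other.

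Superoxide dismutases turn superoxide into hydrogen peroxide, in the cytosol (Sod1), in mitochondria (Sod2) and outside the cell (Sod3). Catalase (Cat) in peroxisomes and the peroxiredoxins remove the peroxide. Glutathione, the main small thiol of hepatocytes, is made from the product of glutamate-cysteine ligase, which consists of a catalytic subunit (Gclc) and a modifier subunit (Gclm). Thioredoxin reductase (Txnrd1) keeps cytosolic thioredoxin reduced, and sulfiredoxin (Srxn1) repairs overoxidised peroxiredoxins. NRF2, the product of Nfe2l2, is degraded with the help of KEAP1 and binds antioxidant response elements together with small MAF proteins; Gclc, Gclm, Srxn1 and Txnrd1 are known targets. Inducible nitric oxide synthase (Nos2) makes nitric oxide from arginine and is low in resting tissue, while NF-kappaB is known to drive Nos2 and Sod2 in inflammation.

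RefSeq promoters of build GRCm38.p6, from 250 bases before to 50 after a gene's start, matched 7 of the 10 genes. Nos2, Sod3 and Gclc had none. The core of the antioxidant response element, searched on both strands as TGACNNNGC, was found in 5 of 9 windows and in 5 of 7 genes (Sod1, Gclm, Srxn1, Txnrd1 and Nfe2l2). It was also found in 12.4% of all 32851 windows of this length. An NF-kappaB form, GGGANTTTC on both strands, was found in 0 of the 9 windows, including that of Sod2, and in 1.11% of all windows. A match of letters is a description and not a binding site. The 3 windows shown here belong to known NRF2 targets, of which Txnrd1 and Srxn1 were higher and Gclm lower after IL-1β. Capitals mark the match to the element's core, which lies on the other strand in all 3. The Srxn1 window is chr2:152105274-152105573 on the plus strand, the Txnrd1 window is chr10:82858956-82859255 on the plus strand (1 of 3 listed starts), and the Gclm window is chr3:122245307-122245606 on the plus strand.
Srxn1: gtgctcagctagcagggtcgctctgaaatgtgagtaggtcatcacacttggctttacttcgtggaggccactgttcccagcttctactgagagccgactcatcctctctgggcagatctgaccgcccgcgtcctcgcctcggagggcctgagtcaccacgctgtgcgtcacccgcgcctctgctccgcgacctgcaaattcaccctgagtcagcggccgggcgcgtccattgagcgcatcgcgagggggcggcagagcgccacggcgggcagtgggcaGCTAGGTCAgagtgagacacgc
Txnrd1: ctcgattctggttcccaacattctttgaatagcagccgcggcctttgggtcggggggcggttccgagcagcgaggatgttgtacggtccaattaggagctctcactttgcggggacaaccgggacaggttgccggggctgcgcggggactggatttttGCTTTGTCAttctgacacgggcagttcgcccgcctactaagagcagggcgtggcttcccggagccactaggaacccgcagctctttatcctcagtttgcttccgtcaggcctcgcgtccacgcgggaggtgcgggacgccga
Gclm: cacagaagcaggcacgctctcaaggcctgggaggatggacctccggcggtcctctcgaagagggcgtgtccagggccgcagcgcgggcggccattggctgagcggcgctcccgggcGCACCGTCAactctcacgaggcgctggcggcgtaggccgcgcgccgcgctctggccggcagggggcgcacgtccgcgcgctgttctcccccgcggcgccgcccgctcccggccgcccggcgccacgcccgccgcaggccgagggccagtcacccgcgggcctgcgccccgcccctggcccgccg

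Among the 10 genes, Nos2, Sod2 and Txnrd1 were higher after IL-1β in all 3 kits and Srxn1 was higher in Pico and TruSeq, while Cat and Gclm were lower in all 3 kits. Sod1, Sod3 and Nfe2l2 were called lower in TruSeq only, and Gclc was called in no kit. In Pico, 4 members were called higher and 2 lower, where 6.78% of all 18108 genes tested were called higher and 10.8% lower. In V4, 3 members were called higher and 2 lower, against 3.6% and 7.41% of 18051 genes. In TruSeq, 4 members were called higher and 5 lower, against 12.3% and 21.8% of 19424 genes. The IL-1β and saline mice did not overlap in CPM (counts scaled to a fixed library total) for 9, 7 and 9 members in Pico, V4 and TruSeq, against 31.2%, 27.6% and 44.9% of all genes tested. The median log2 fold change of the members was -0.05, -0.10 and -0.03 in Pico, V4 and TruSeq, beside -0.12, -0.22 and -0.17 for all genes. It was -0.25, -0.20 and -0.29 without Nos2. Scaling by TMM factors (edgeR's trimmed mean of M-values) in place of library totals moved the median of all genes up by 0.13, 0.17 and 0.16 in Pico, V4 and TruSeq. With these factors, 4 members were called higher in each kit, and 1 was called lower in Pico (Cat), 0 in V4 and 2 in TruSeq (Cat and Gclm). Some of the falls called with library totals therefore depend on the scaling, and each called fall of a member is given with both.

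**Figure D1:**
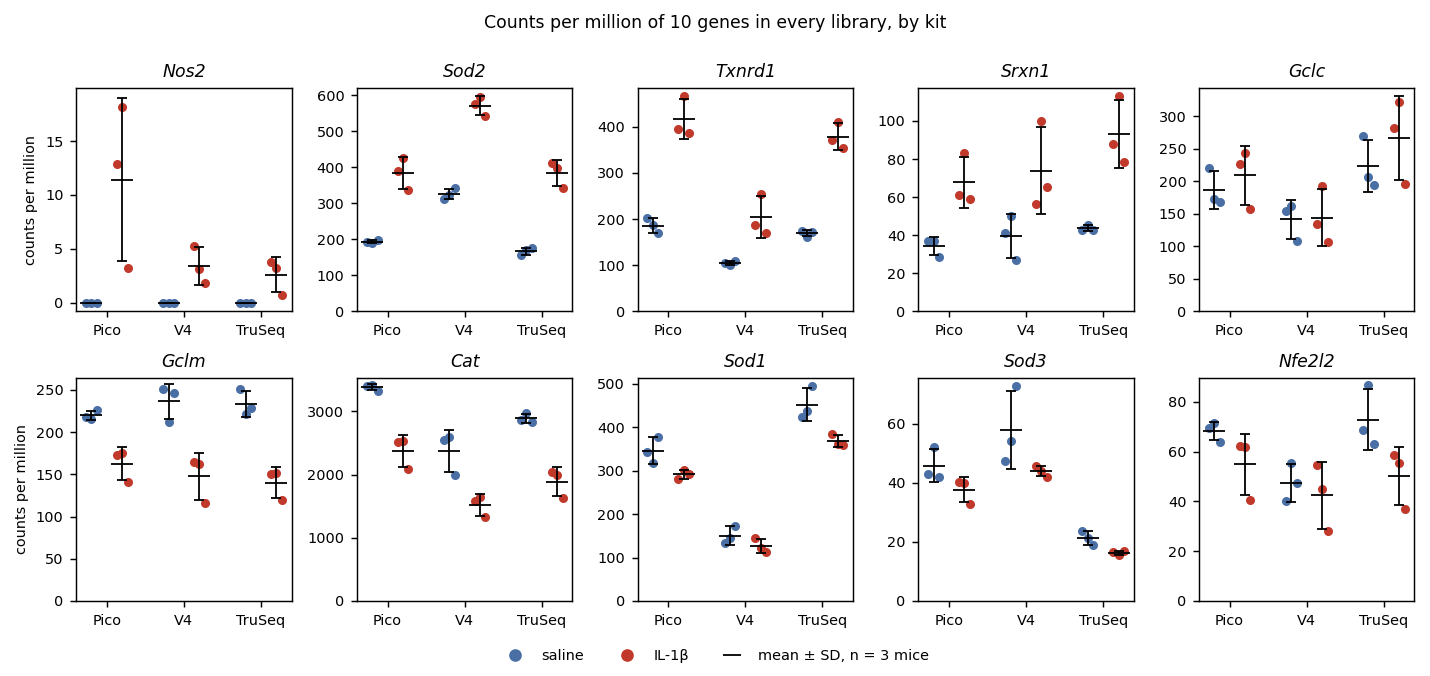
Levels of the 10 genes in CPM (y axis, 1 scale per panel) in each of the 18 libraries, grouped by kit on the x axis, with saline mice in blue and IL-1β mice in red. Points are mice, black lines are the mean ± SD of 3 mice. Nos2 was at 0 in all saline libraries, and the mean of Sod2, Txnrd1 and Srxn1 was higher with IL-1β in each kit while that of Cat and Gclm was lower.

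Nos2 (chr11:78734289-78773756, plus strand, with gene coordinates in mm9 throughout) was the gene of the group that was at 0 in the saline mice. All 9 saline libraries had 0 counts, which allows up to 3 counts in a library, or 0.735 CPM in Pico, 0.25 in V4 and 0.237 in TruSeq. Mice I9579, I9582 and I9583 had 52, 73 and 13 counts in Pico, 47, 40 and 9 in TruSeq, and 64, 38 and 22 in V4. Every IL-1β library therefore stood above the saline libraries, with mouse I9583 the lowest in each kit. The mean was 11.4 ± 7.56 CPM in Pico, 3.41 ± 1.73 in V4 and 2.58 ± 1.63 in TruSeq (SD, n = 3). The observed mean was 10.9-fold the floor of 3 counts per library in TruSeq, 13.7-fold in V4 and 15.5-fold in Pico. For mouse I9583 alone the observed level was 3.06-fold, 7.31-fold and 4.38-fold the floor in these kits. The adjusted p was 8.88e-05, 0.000257 and 0.00148 in Pico, V4 and TruSeq, and the gene stayed called without any 1 of the 6 mice, with adjusted p up to 0.0184, 0.0067 and 0.0343. The spread between the 3 treated mice was wide, and the counts are low, so the size of the rise is less certain than its direction. The floor covers the counting error of the saline libraries only. It covers neither the counting error of the treated libraries nor differences between mice.

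Neutrophil markers moved in the same direction as Nos2. Of 9 neutrophil genes, 5, 7 and 8 were listed in Pico, V4 and TruSeq. Against 6.78%, 3.6% and 12.3% of all genes, 5, 4 and 5 of them were called higher. Their summed level was 36.3 to 44 CPM in the IL-1β libraries and 0.971 to 5.14 in the saline libraries of Pico, 35.1 to 65 against 2.07 to 5.16 in V4, and 40.8 to 82.7 against 3.28 to 6.08 in TruSeq. S100a9, which encodes a calcium-binding protein abundant in neutrophils, had 241 to 514 counts with IL-1β and 13 to 19 with saline in TruSeq. Cxcr2, a chemokine receptor on neutrophils, had 37 to 66 counts with IL-1β and 1 to 3 with saline in TruSeq, and Csf3r, the receptor for G-CSF, had 74 to 109 against 20 to 39. Ngp, a granule gene, had 7 to 15 counts with IL-1β in TruSeq and 0 with saline. Other genes of the list were at or near 0 in both groups, with Mpo listed in no kit and Elane, Camp and Ly6g at 5 counts at most in any library. Of 8 Kupffer cell and macrophage markers, 0 were called higher in Pico and V4 and 1 in TruSeq (Marco). Against 10.8%, 7.41% and 21.8% of all genes, 2, 1 and 3 of them were called lower in Pico, V4 and TruSeq. Their summed level was 88 to 137 CPM with IL-1β against 152 to 194 with saline in Pico, 91.8 to 131 against 153 to 221 in V4, and 72.4 to 106 against 134 to 203 in TruSeq. In whole liver, more cells of a type and more RNA per cell cannot be told apart, and the part of these cells in the Nos2 counts was not tested.

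Sod2, the mitochondrial superoxide dismutase (chr17:13200705-13210985, plus strand), rose in all kits. In TruSeq it had 5103, 4932 and 4249 counts in mice I9579, I9582 and I9583 and 1971, 2166 and 2245 in saline mice U9574, U9575 and U9576. In Pico the counts were 1583, 1712 and 1358 with IL-1β and 788, 779 and 814 with saline. In V4 they were 6997, 7193 and 6544 against 3756, 3923 and 4223. The 2 groups were far apart in every kit, and mouse I9583 was again the lowest treated mouse. The log2 fold change was 0.99 ± 0.11 in Pico (SE, adjusted p = 9.86e-06), 0.81 ± 0.12 in V4 (adjusted p = 0.00247) and 1.20 ± 0.10 in TruSeq (adjusted p = 3.04e-05), or 1.98-fold, 1.75-fold and 2.3-fold. Leaving out any 1 mouse kept the call in all kits.

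Sod1 and Sod3 showed no such rise. Sod1, the cytosolic enzyme (chr16:90220987-90226567, plus strand), had 4786, 4465 and 4466 counts with IL-1β and 5355, 5613 and 6369 with saline in TruSeq. Its counts were 1134, 1214 and 1185 against 1406, 1305 and 1565 in Pico, and 1755, 1478 and 1365 against 1603, 1756 and 2148 in V4. The treated mice were below all saline mice in Pico and TruSeq, while the groups overlapped in V4. Its log2 fold change was -0.25 ± 0.10 in Pico (SE, adjusted p = 0.111), -0.25 ± 0.17 in V4 (adjusted p = 0.415) and -0.29 ± 0.09 in TruSeq (adjusted p = 0.0345). With TMM factors the TruSeq value was -0.13 (adjusted p = 0.327), and the TruSeq call was lost without any 1 of mice U9575, U9576, I9579, I9582 and I9583, at adjusted p of 0.0553 to 0.097. The call held without mouse U9574, and the log2 fold change of Sod1 in TruSeq stayed between -0.34 and -0.22 in the fits without 1 mouse.

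Sod3, the secreted enzyme (chr5:52755185-52762644, plus strand), was the lowest of the dismutases. It had 204, 193 and 209 counts with IL-1β and 300, 274 and 244 with saline in TruSeq, 163, 161 and 133 against 176, 215 and 174 in Pico, and 555, 530 and 508 against 568, 654 and 899 in V4. Treated mice were below saline mice in all 3 kits, by a small margin in Pico and V4. The log2 fold change was -0.28 ± 0.18 in Pico (SE, adjusted p = 0.345), -0.38 ± 0.21 in V4 (adjusted p = 0.292) and -0.38 ± 0.12 in TruSeq (adjusted p = 0.0374). With TMM factors it was -0.23 in TruSeq (adjusted p = 0.2), and the call was also lost without any 1 of mice U9574, U9575, I9579, I9582 and I9583, at adjusted p of 0.0607 to 0.105.

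Copper handling genes were read beside the copper enzymes Sod1 and Sod3. Of 5 genes, 0 were called higher in Pico, V4 and TruSeq, against 6.78%, 3.6% and 12.3% of all genes. In these kits 2, 1 and 3 of the 5 were called lower, against 10.8%, 7.41% and 21.8% of all genes. The median log2 fold change of the 5 genes was -0.32, -0.33 and -0.34, beside -0.12, -0.22 and -0.17 for all genes. Ccs, the chaperone that loads copper into SOD1, fell in all kits, with log2 fold changes of -1.02 ± 0.18, -0.66 ± 0.14 and -0.77 ± 0.09 in Pico, V4 and TruSeq (SE; adjusted p = 0.000654, 0.0132 and 0.000268). Its TruSeq counts were 881 to 1026 with IL-1β and 1614 to 1737 with saline. With TMM factors 2, 0 and 2 genes of the list were called lower in Pico, V4 and TruSeq. The V4 call of Ccs was lost (-0.50, adjusted p = 0.0588), and so was the TruSeq call of Slc31a1 (-0.18, adjusted p = 0.151). Atp7b, the copper pump of hepatocytes, fell by 1.78 in Pico and by 1.71 in TruSeq on the log2 scale (adjusted p = 6.27e-05 and 3.76e-05). In V4 Atp7b had a log2 fold change of -2.45 ± 0.87 (SE, adjusted p = 0.101), at 1 to 31 counts with IL-1β and 38 to 49 with saline.

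Cat, the most abundant gene of the group per length (chr2:103294006-103325317, minus strand), fell in all kits with library totals. Its TruSeq counts were 25357, 24632 and 20290 with IL-1β and 36168, 38057 and 36471 with saline. In Pico they were 10208, 10184 and 8421 against 13879, 14074 and 13754, and in V4 19335, 19913 and 15972 against 30515, 31432 and 24617. No treated mouse reached the lowest saline mouse in any kit. Its log2 fold change was -0.51 ± 0.07 in Pico (SE, adjusted p = 5.98e-05), -0.64 ± 0.14 in V4 (adjusted p = 0.0134) and -0.62 ± 0.10 in TruSeq (adjusted p = 0.0011), which is a change of -29.9%, -35.8% and -34.9%. With TMM factors it was -0.38, -0.47 and -0.46, and the V4 call was lost (adjusted p = 0.0664). The V4 call was also lost without mouse U9574, U9575 or I9583 (adjusted p of 0.0601 to 0.0788), while the calls in Pico and TruSeq held without any 1 mouse.

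The glutamate-cysteine ligase subunits differed. Gclm, the modifier subunit (chr3:121948475-121972902, plus strand), had 1870, 1870 and 1477 counts with IL-1β and 3173, 2829 and 2941 with saline in TruSeq. It had 698, 705 and 569 against 888, 888 and 935 in Pico, and 1999, 1963 and 1397 against 3010, 2568 and 3045 in V4. Treated mice were below saline mice in every kit. The log2 fold change was -0.44 ± 0.12 in Pico (SE, adjusted p = 0.014), -0.69 ± 0.17 in V4 (adjusted p = 0.0263) and -0.74 ± 0.11 in TruSeq (adjusted p = 0.000924). With TMM factors only the TruSeq call of Gclm held (-0.58, adjusted p = 0.00264), against -0.31 in Pico (adjusted p = 0.08) and -0.53 in V4 (adjusted p = 0.0753). The Gclm call was lost without mouse U9574, U9576 or I9583 in Pico (adjusted p of 0.0508 to 0.0717), and without any 1 of mice U9574, U9575, U9576, I9582 and I9583 in V4 (0.0588 to 0.107). Gclm shares 296 exonic bases with Gm17494, a lincRNA on the other strand, which had at most 5 counts in Pico and 2 in TruSeq but up to 603 in V4. Reads of both genes over the shared bases cannot be told apart in the unstranded V4 libraries.

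Gclc, the catalytic subunit (chr9:77602342-77642292, plus strand), had 3507, 3980 and 2426 counts with IL-1β and 3400, 2642 and 2499 with saline in TruSeq. Its counts were 917, 980 and 637 against 897, 709 and 692 in Pico, and 1626, 2318 and 1283 against 1861, 1949 and 1326 in V4. The groups overlapped in all 3 kits, with the counts of mouse I9583 below those of the saline mice and the counts of mouse I9582 above them. In CPM, mouse I9583 was level with the lowest saline mouse in TruSeq (195.5 against 194.4 for mouse U9576). For Gclc the log2 fold change was 0.15 (95% confidence interval -0.17 to 0.48, adjusted p = 0.577) in Pico, 0.01 (-0.51 to 0.53, adjusted p = 0.99) in V4 and 0.24 (-0.17 to 0.66, adjusted p = 0.374) in TruSeq. A change of Gclc was not detectable with these mice, and the intervals allow a rise or a fall.

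Of 10 other glutathione genes, 9 were listed in Pico and V4 and 10 in TruSeq. In Pico 2 were called higher and 1 lower, in V4 1 and 0, and in TruSeq 1 and 3 (1 and 1 with TMM factors, where Gss and Gstp1 lost their TruSeq calls), with median log2 fold changes of -0.45, 0.10 and 0.06. Among all genes, 6.78%, 3.6% and 12.3% were called higher in Pico, V4 and TruSeq and 10.8%, 7.41% and 21.8% lower. The genes of the list called higher in Pico were Gsr and Slc7a11. Slc7a11 was near the floor there, at 1 to 4 counts with IL-1β and 0 with saline (adjusted p = 0.0339), and was not called in V4 or TruSeq. Gsr, the reductase that regenerates glutathione, rose in all kits, with log2 fold changes of 0.53 ± 0.14, 0.64 ± 0.16 and 0.98 ± 0.11 in Pico, V4 and TruSeq (SE; adjusted p = 0.0133, 0.0311 and 0.000185). In TruSeq Gsr had 1456 to 1800 counts with IL-1β and 806 to 934 with saline. Gstp1, a glutathione transferase, fell by 0.47 in Pico (adjusted p = 0.00692) and by 0.36 in TruSeq (adjusted p = 0.0128) on the log2 scale and had -0.24 in V4 (adjusted p = 0.192). With TMM factors Gstp1 had -0.21 in TruSeq (adjusted p = 0.104). Gpx1, the abundant glutathione peroxidase, had log2 fold changes of -0.14, 0.10 and -0.05, none of them called.

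Txnrd1, cytosolic thioredoxin reductase (chr10:82296696-82360469, plus strand), rose in all kits. In TruSeq it had 4623, 5069 and 4388 counts with IL-1β and 2215, 2067 and 2213 with saline. In Pico it had 1604, 1875 and 1565 against 823, 768 and 702, and in V4 2278, 3080 and 2058 against 1254, 1211 and 1347. The groups were far apart, with mouse I9582 the highest in each kit. The log2 fold change was 1.16 ± 0.11 in Pico (SE, adjusted p = 2.05e-06), 0.95 ± 0.18 in V4 (adjusted p = 0.00771) and 1.16 ± 0.09 in TruSeq (adjusted p = 2.39e-05), or 2.24-fold, 1.93-fold and 2.23-fold. Without mouse U9575 the V4 call was lost at an adjusted p of 0.0502.

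Srxn1, sulfiredoxin (chr2:151931252-151937112, plus strand), rose in Pico and TruSeq. Its TruSeq counts were 1091, 1396 and 976 with IL-1β and 543, 581 and 546 with saline. They were 247, 334 and 239 against 150, 153 and 119 in Pico, and 688, 1206 and 787 against 493, 605 and 336 in V4. No groups overlapped, although the mice of both V4 groups were spread widely. For Srxn1 the log2 fold change was 0.97 ± 0.19 in Pico (SE, adjusted p = 0.00173) and 1.08 ± 0.14 in TruSeq (adjusted p = 0.000313). In V4 it was 0.91 ± 0.28 (SE, adjusted p = 0.0594), and with TMM factors 1.08 (adjusted p = 0.0367), past the threshold.

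**Figure D2:**
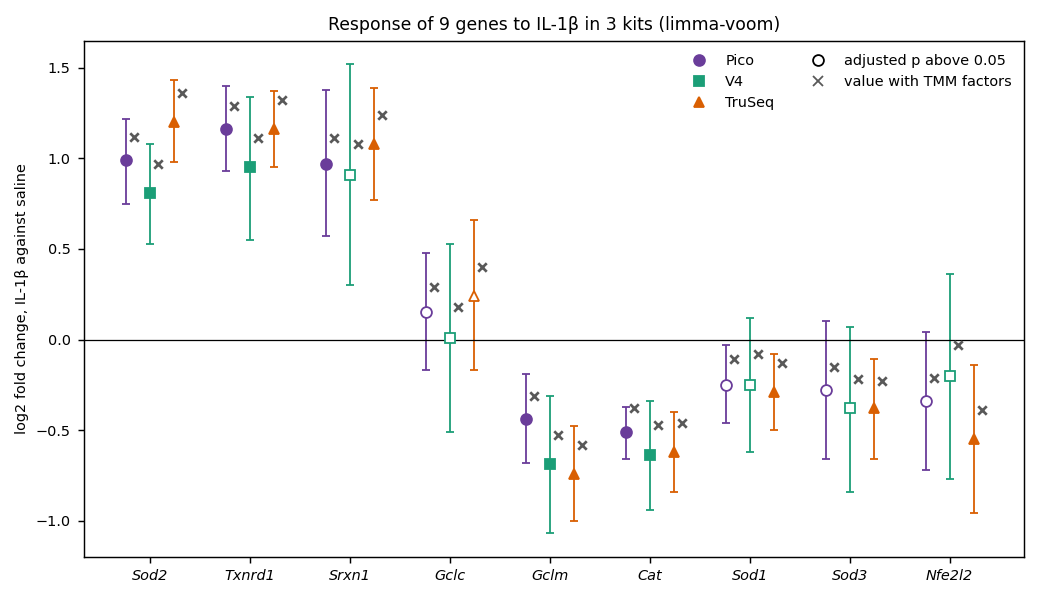
Log2 fold change of 9 genes after IL-1β against saline (y axis) with its 95% confidence interval in Pico, V4 and TruSeq (limma-voom with library totals, 3 against 3 mice). Open symbols have an adjusted p above 0.05 and crosses show the value with TMM factors. Sod2, Txnrd1 and Srxn1 lie between 0.81 and 1.20, Gclm and Cat lie between -0.74 and -0.44, and each cross lies above its symbol. Nos2 is left out because its saline libraries were all at 0.

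Most other genes of the thioredoxin and peroxiredoxin system were not called. Against 6.78%, 3.6% and 12.3% of all genes, 0 of 10 genes were called higher in Pico, V4 and TruSeq with library totals. Against 10.8%, 7.41% and 21.8% of all genes, 2, 2 and 3 of them were called lower. Their median log2 fold changes were -0.23, -0.21 and -0.25, beside -0.12, -0.22 and -0.17 for all genes. Txnip, which binds and inhibits thioredoxin, fell in all kits, with log2 fold changes of -1.43 ± 0.23, -1.64 ± 0.38 and -1.63 ± 0.13 in Pico, V4 and TruSeq (SE; adjusted p = 0.000374, 0.0187 and 2.59e-05). It had 251 to 312 counts with IL-1β and 813 to 1017 with saline in TruSeq. Prdx6, a peroxiredoxin that uses glutathione, fell by 0.80, 0.74 and 0.91 on the log2 scale (adjusted p = 8.66e-05, 0.00274 and 6.71e-05). With TMM factors 1 gene was called higher in Pico (Prdx1) and 1 in TruSeq (Txn1). In each kit 2 were called lower with these factors, and Prdx2 lost its TruSeq call (-0.18, adjusted p = 0.247). Prdx1, Txn1 and Prdx2 are named after their values were seen. Prdx1, a substrate of sulfiredoxin, had 0.26 in Pico with library totals (adjusted p = 0.0601) and 0.39 with TMM factors (adjusted p = 0.00594). Txn1, thioredoxin itself, had 0.17 in TruSeq with library totals (adjusted p = 0.194) and 0.33 with TMM factors (adjusted p = 0.0181).

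Nfe2l2, which encodes NRF2 (chr2:75513570-75542698, minus strand), was not higher in any kit. Its counts were 729, 683 and 459 with IL-1β and 869, 1111 and 813 with saline in TruSeq. They were 252, 249 and 164 against 283, 294 and 265 in Pico, and 665, 542 and 337 against 481, 669 and 586 in V4. Treated mice were below saline mice in Pico and TruSeq, and the groups overlapped in V4, where mouse I9583 was the lowest and mouse I9579 close to the highest. The log2 fold change was -0.34 ± 0.18 in Pico (SE, adjusted p = 0.227), -0.20 ± 0.26 in V4 (adjusted p = 0.687) and -0.55 ± 0.18 in TruSeq (adjusted p = 0.042). With TMM factors the TruSeq value was -0.39 (adjusted p = 0.125), and the TruSeq call was also lost without any 1 of mice U9574, U9575, U9576, I9582 and I9583 (adjusted p of 0.0719 to 0.18). NRF2 is controlled mostly through its protein, which gene counts do not measure.

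Of 9 genes that encode partners or inhibitors of NRF2, Pico called 2 higher and 1 lower, V4 1 and 1, and TruSeq 3 and 1. Among all genes, 6.78%, 3.6% and 12.3% were called higher and 10.8%, 7.41% and 21.8% lower. The medians of the list were 0.04, -0.01 and 0.07. Sqstm1, which encodes p62 and sequesters KEAP1, rose in all kits, with log2 fold changes of 0.98 ± 0.13, 0.89 ± 0.16 and 1.03 ± 0.10 in Pico, V4 and TruSeq (SE; adjusted p = 3.75e-05, 0.00598 and 8.02e-05). Its TruSeq counts were 6805 to 8570 with IL-1β and 3809 to 4033 with saline. Mafg, a small MAF partner of NRF2, fell by 0.67, 0.90 and 0.69 in Pico, V4 and TruSeq on the log2 scale (adjusted p = 0.0101, 0.0386 and 0.000704), and its V4 call was lost with TMM factors (adjusted p = 0.0806). The other small MAF genes of the list did not fall with it. Mafk had 0.61, 0.33 and 0.96 in Pico, V4 and TruSeq (adjusted p = 0.296, 0.555 and 0.000912). Maff had 0.03, 0.42 and 0.11, and none was called. Nfe2l1, a relative of Nfe2l2, rose in Pico and TruSeq (0.43 and 0.46, adjusted p = 0.0421 and 0.00425) and had -0.01 in V4 (adjusted p = 0.994). Its Pico call was lost in 1 fit of all 18 libraries (adjusted p = 0.103) and without any 1 of mice U9574, U9575, U9576, I9579 and I9582 (adjusted p of 0.0937 to 0.217), while its TruSeq call held without any 1 mouse. Keap1, whose product marks NRF2 for degradation, had -0.03, 0.02 and 0.07, and none was called.

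A list of 7 genes, many of them NRF2 targets, held Hmox1 beside genes for NADPH supply and quinone reduction. In Pico, V4 and TruSeq 1, 2 and 2 of them were called higher, and 0 were called lower in any kit. Among all genes, 6.78%, 3.6% and 12.3% were called higher and 10.8%, 7.41% and 21.8% lower. The gene of the list called higher in Pico was Hmox1, and those in V4 and TruSeq were Hmox1 and Pgd. Hmox1, haem oxygenase 1, rose in all kits, with log2 fold changes of 1.55 ± 0.26, 1.69 ± 0.38 and 1.33 ± 0.27 in Pico, V4 and TruSeq (SE; adjusted p = 0.000512, 0.0173 and 0.00414). Hmox1 had 308 to 633 counts with IL-1β and 156 to 243 with saline in TruSeq. Pgd, an NADPH-forming enzyme of the pentose phosphate pathway, rose by 0.85 in V4 and 0.72 in TruSeq (adjusted p = 0.0406 and 0.00553) and had 0.53 in Pico (adjusted p = 0.16). Nqo1, a quinone reductase often read as a marker of NRF2 activity, had log2 fold changes of -0.74, -0.68 and -0.58 (adjusted p = 0.556, 0.476 and 0.139), at 30 to 71 counts with IL-1β and 71 to 80 with saline in TruSeq.

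**Figure D3:**
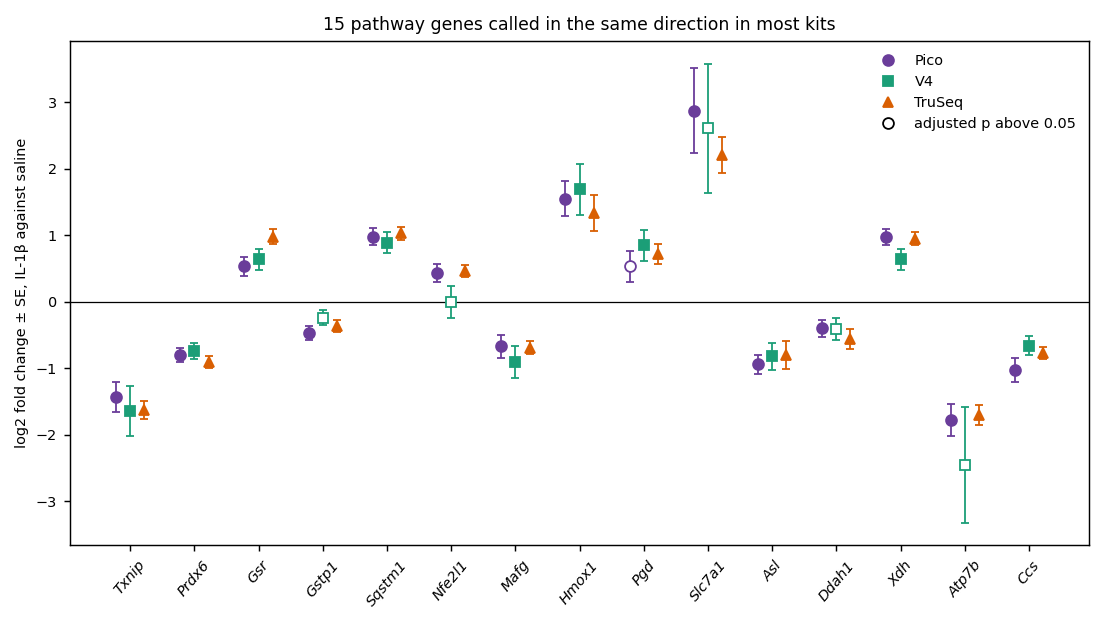
Log2 fold change ± SE (y axis) of the 15 pathway genes that passed the threshold in the same direction in at least 2 of 3 kits, at most 2 per direction and list. Filled symbols have an adjusted p of at most 0.05 in that kit. Gsr, Sqstm1, Hmox1 and Xdh lie above 0 and Txnip, Prdx6, Mafg, Asl and Ccs below 0 in all 3 kits, and Nfe2l1 is at -0.01 in V4.

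Genes around nitric oxide synthesis had median log2 fold changes of -0.19, -0.35 and -0.19 in Pico, V4 and TruSeq, beside -0.12, -0.22 and -0.17 for all genes. Of 16 genes, 15 were listed in V4, and Pico called 1 higher and 4 lower, V4 0 and 1, and TruSeq 3 and 7. Over all genes, 6.78%, 3.6% and 12.3% were called higher and 10.8%, 7.41% and 21.8% lower. With TMM factors the calls of the list were 2 and 1, 0 and 0, and 3 and 2, so most of the falls did not hold under that scaling. The TruSeq rises were Slc7a1, Nos3 (0.84, adjusted p = 0.0381) and Arg2 (1.84, adjusted p = 0.0121). Arg2 had 5 to 9 counts with IL-1β and 1 to 2 with saline. Slc7a1, a cationic amino acid transporter that brings arginine into cells, rose by 2.87 ± 0.64 in Pico and 2.20 ± 0.27 in TruSeq on the log2 scale (SE; adjusted p = 0.00455 and 0.000265). Its TruSeq counts were 44 to 51 with IL-1β and 8 to 12 with saline, and in V4 it had 2.61 ± 0.97 (SE, adjusted p = 0.119). Asl, which forms arginine in the urea cycle, fell by 0.94, 0.82 and 0.80 in Pico, V4 and TruSeq (adjusted p = 0.000183, 0.0224 and 0.0135), and with TMM factors its V4 value was -0.65 (adjusted p = 0.0507). Ddah1, which breaks down methylated arginines that inhibit the synthases, fell by 0.40 in Pico and 0.56 in TruSeq (adjusted p = 0.0409 and 0.0148), and both calls were lost with TMM factors (adjusted p = 0.19 and 0.0539). Gch1, the first enzyme in the synthesis of the cofactor tetrahydrobiopterin, had -0.20, 0.11 and -0.14, and none was called.

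Of 8 genes for sources of superoxide, 1 was called higher in each kit, Xdh, and 2 were called lower in TruSeq only (Cybb and Nox4). Among all genes, 6.78%, 3.6% and 12.3% were called higher in Pico, V4 and TruSeq and 10.8%, 7.41% and 21.8% lower. With TMM factors the counts of the list were 2 higher in Pico (Xdh and Rac2) and 1 lower in TruSeq (Nox4). Xdh, xanthine dehydrogenase, which can release superoxide in its oxidase form, rose by 0.98 ± 0.12, 0.64 ± 0.16 and 0.95 ± 0.10 in Pico, V4 and TruSeq on the log2 scale (SE; adjusted p = 2.28e-05, 0.0286 and 0.000109). Its TruSeq counts were 4828 to 5593 with IL-1β and 2585 to 3033 with saline. Cybb, the catalytic subunit of the phagocyte oxidase, had -0.07, -0.47 and -0.64 in Pico, V4 and TruSeq (adjusted p = 0.894, 0.728 and 0.0316), and with TMM factors -0.48 in TruSeq (adjusted p = 0.0867).

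The calls of the 15 pathway genes were also read with 1 mouse left out. These genes were chosen partly by their adjusted p in TruSeq, which favours that kit. The counts that follow therefore do not rank the kits. In TruSeq 13 of 15 called genes stayed called without any 1 of the 6 mice, in Pico 9 of 14 and in V4 2 of 10 (Prdx6 and Sqstm1). The genes that lost a call were Asl and Ddah1 in TruSeq (adjusted p of 0.0514 to 0.082), and Gsr, Gstp1, Nfe2l1, Mafg and Ddah1 in Pico (0.0509 to 0.217). In V4 they were Txnip, Gsr, Mafg, Hmox1, Pgd, Asl, Xdh and Ccs (0.0519 to 0.15). Each of the 6 mice was among those without which at least 1 call was lost, and the direction of every called value stayed the same.

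The difference in response between kits was tested for each pair of kits over their 12 libraries, with a term for treatment within kit. For the 3 pairs, 0 of the 10 members passed the threshold, and 0% of all genes tested passed in each pair (0 of 17207 for Pico and TruSeq, 0 of 17147 for V4 and TruSeq, and 0 of 16395 for Pico and V4). At an unadjusted p under 0.05 there were 945, 1090 and 900 genes, or 5.49%, 6.36% and 5.49%, and DESeq2 called 4, 72 and 17 genes, of which none was a member. Sod2 had the smallest adjusted p of the members and was the 1 member past 0.05 without adjustment in the fit without the mouse as a block, with a response that was lower in V4 than in TruSeq by a log2 difference of -0.40 (95% confidence interval -0.71 to -0.08, adjusted p = 0.604). Gclm had the next, with a difference of 0.30 for Pico minus TruSeq (-0.04 to 0.64, adjusted p = 0.9). The calls of Sod1, Sod3 and Nfe2l2 in TruSeq alone therefore do not show that TruSeq differed from the other kits for these genes. For Nfe2l2 the difference of Pico minus TruSeq was 0.21 (-0.37 to 0.79) and that of V4 minus TruSeq 0.35 (-0.37 to 1.06). For Sod1 the differences were 0.05 (-0.23 to 0.32) and 0.04 (-0.34 to 0.42), and for Sod3 0.11 (-0.34 to 0.55) and 0.00 (-0.55 to 0.55). With the mouse as a block, which takes up the sharing of mice between kits, 3 members passed 0.05 without adjustment for Pico minus TruSeq (0.30 for Gclm, 0.11 for Cat and -0.21 for Sod2) and 1 for V4 minus TruSeq (-0.40 for Sod2). Their adjusted p in that fit was 0.599, 0.633, 0.666 and 0.448, so none of these differences passed the threshold.

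Levels were compared between genes in CPM per kilobase of annotated exon, averaged over the 3 saline mice. In TruSeq the order of these levels was Cat (1106 ± 28.2, SD), Sod1 (700 ± 58.8), Gclc (65.2 ± 11.7), Gclm (45.5 ± 3), Sod2 (43.5 ± 2.54), Txnrd1 (42.2 ± 1.77), Nfe2l2 (19.2 ± 3.25), Srxn1 (15.5 ± 0.561), Sod3 (5.98 ± 0.663) and Nos2 (0). The saline mice of Gclm and Sod2 overlapped, and so did those of Sod2 and Txnrd1, so the order within these 3 genes is not settled. After IL-1β the mean TruSeq level of Sod2 was 100.5 ± 9.57 and that of Txnrd1 94.2 ± 7.21, both above the mean of Gclc (77.9 ± 18.9). The treated mice overlapped, with Gclc at 94.16 in mouse I9582 and Sod2 at 89.56 and Txnrd1 at 88 in mouse I9583. The order of Sod2, Txnrd1 and Gclc after IL-1β is therefore not settled. Cat (723 ± 85) and Sod1 (571 ± 21.9) stayed at the top. Nos2 reached 0.616 ± 0.389 CPM per kilobase in TruSeq, the lowest of the 10 genes. The top genes, Cat and Sod1, were the same in Pico (1294 and 537) and V4 (910 and 234). In Pico, Gclc, Sod2, Txnrd1 and Gclm were neighbours that overlapped, and so did Sod3 and Srxn1. In V4, Sod2 (85.3 ± 3.85) stood above Gclm (46 ± 4.08) and Gclc (41.2 ± 8.6), which overlapped.

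The kits measured some members at different levels in the same mice. The level of Sod1 in V4 relative to TruSeq was -1.57 ± 0.10 on the log2 scale (mean ± SD over 6 mice), where the median of 8960 genes with at least 20 counts on average in every kit was -0.42 and the central 90% ran from -2.65 to 1.40. Sod3 was at 1.43 ± 0.31 in V4 and at 1.15 ± 0.20 in Pico relative to TruSeq, beside a median of 0.02 for all genes in Pico. Sod2 was at 0.77 ± 0.22 in V4. Each of these differences from TruSeq had the same sign in all 6 mice, and the kits cannot be told apart from their runs, RNA inputs, sequencers and read lengths. Between Pico and TruSeq, Sod1, Sod2, Cat, Gclc, Gclm, Srxn1, Txnrd1 and Nfe2l2 lay within -0.41 and 0.28. Nos2 was not compared in this way because its saline libraries were at 0, and its treated means are given with its counts.

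The 3 mice given IL-1β were not alike, which was noticed after the values were seen. Mouse I9583 had the lowest CPM among the treated mice for 9 of the 10 members in each kit. Over all genes that averaged 20 counts or more in the kit, this mouse was the lowest for 37.8%, 37.7% and 40.8%. It was the lowest in all 3 kits for 7 members (Nos2, Sod2, Cat, Gclc, Gclm, Txnrd1 and Nfe2l2), and for 12.4% of the 8960 genes. Its Nos2 level was 0.208 of the mean of the other 2 treated mice in Pico, 0.434 in V4 and 0.207 in TruSeq. For Nfe2l2 this ratio was 0.654, 0.562 and 0.649, for Gclc 0.671, 0.653 and 0.647, and for Sod2 0.823, 0.927 and 0.845. The same RNA entered the kits, so the kits repeat the mouse and do not add mice.

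**Figure D4:**
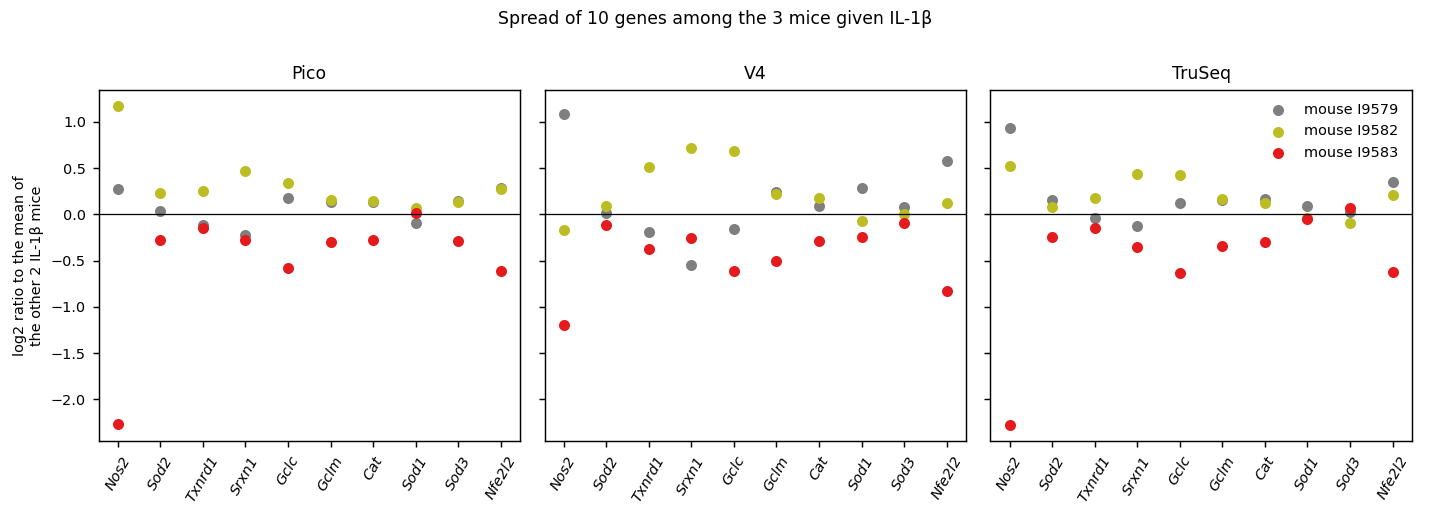
Log2 ratio of each IL-1β mouse to the mean of the other 2 treated mice (y axis) for the 10 genes in Pico, V4 and TruSeq, with mouse I9583 in red. Mouse I9583 lies lowest for 9 of 10 genes in each kit, down to -2.28 for Nos2 in TruSeq.

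The genes most alike were found by Pearson's r over the 18 libraries, on log2 CPM (with 1 added) centred within each kit, among the 8960 genes that averaged 20 counts or more in every kit. For Nos2 they were Efna1 (r = 0.957), Creb3l1 (0.95) and S100a10 (0.943). For Sod2 they were Cxcl9 (0.984), Slc39a14 (0.982) and Tacc2 (0.982), and for Nfe2l2 Glo1 (0.915), Fabp2 (0.901) and Hsp90ab1 (0.881). These 18 points come from 6 mice and share treatment and library, so the values describe likeness only. The treatment difference is part of this likeness, so the direction of the genes found follows from how they were picked. Those alike to Nos2 and Sod2 had log2 fold changes from 1.34 for Slc39a14 in V4 to 5.73 for Cxcl9 in TruSeq. Those alike to Nfe2l2 lay between -0.48 and -0.22.

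The libraries of a kit had similar depth, from 4024632 to 4134070 counts with Pico, 12013453 to 12352473 with V4 and 12348864 to 12858237 with TruSeq. The labelled tissue was checked with 5 hepatocyte markers, whose summed level was 37943 to 102123 CPM over the 18 libraries. In TruSeq that sum was lower with IL-1β than with saline (62337 to 68743 against 84271 to 102123). Alb had the most counts of these markers there, at 570133 to 660230 with IL-1β and 863619 to 1062281 with saline. Of the 5 markers, TruSeq called 2 lower (Alb and Cps1) and 1 higher (Tat). Tat rose in all kits, with log2 fold changes of 1.14, 0.98 and 1.28 in Pico, V4 and TruSeq (adjusted p = 1.82e-06, 0.00507 and 0.000227). Endothelial, stellate and smooth muscle, cholangiocyte, erythroid and lymphocyte markers were also read, in TruSeq, where 12.3% of all genes were called higher and 21.8% lower. Of 5 endothelial genes 1 was called higher and 3 lower in TruSeq, of 8 stellate and smooth muscle genes 0 and 4, of 4 cholangiocyte genes 2 and 0, of 3 erythroid genes 0 and 0, and of 4 lymphocyte genes 0 and 2. Their part in the changes of the members was not tested.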

How the data were processed

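Liver RNA of 6 mice was sequenced with 3 kits, giving 18 libraries. Per the labels and the methods, the authors aligned reads with GSNAP to mm9, removed ribosomal reads, resampled the reads to a similar depth within each kit and counted reads per gene. The deposited values are whole-number counts, of the sense strand in Pico and TruSeq and of both strands in V4, and no molecular identifiers were used. The Pico preparation was repeated by the study, and which run the table holds is not given in the sources used here. Coordinates are those of the GENCODE annotation of mm9.

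Each kit was fitted with limma-voom (limma 3.58.1, R 4.3.3) on library totals, for genes with any count in the 6 libraries, with Benjamini-Hochberg adjustment at 0.05. Differences between kits were fitted on 12 libraries with an interaction of kit and treatment. The alternatives were TMM factors in voom, edgeR's quasi-likelihood test (4.0.16), DESeq2 (1.42.0), 1 fit of all 18 libraries, a minimum of 10 counts in 3 libraries, no minimum, fits without each mouse in turn and, between kits, the mouse as a block. The fits were tested on simulated data. Tables and figures were made with pandas 2.3.3, numpy 2.4.6 and matplotlib 3.10.9 in Python 3.11.15.

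The mouse number pairs libraries across kits, since the RNA is the same. Deviations from the group means correlated, over 8960 genes, at 0.194 to 0.446 for the same mouse in Pico and in TruSeq, at 0.168 to 0.458 when V4 was set against TruSeq and at 0.0796 to 0.234 when it was set against Pico, while other mice gave -0.36 to -0.0327. Libraries within a kit differed by more than sampling noise, with a chi-square per degree of freedom of at least 7.04.

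The members and the gene lists (7 of pathways, 8 of cell type markers) were chosen with earlier results of these data known. The text names the 10 members, up to 2 genes per direction of each pathway list that were called alike in most kits, with the smallest adjusted p in TruSeq, the 3 genes most alike to Nos2, Sod2 and Nfe2l2, and marker genes at or near 0. Other genes of the lists that are named (Prdx1, Prdx2, Txn1, Gpx1, Gss, Slc7a11, Slc31a1, Keap1, Mafk, Maff, Nqo1, Gch1, Nos3, Arg2, Cybb, Nox4, Rac2, S100a9, Cxcr2, Csf3r, Ngp, Marco, Alb, Cps1 and Tat) were added after their values were seen. Antisense and intron counts were not analysed here.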

Additional observations from a re-analysis of the deposited data

How the results depend on the processing

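Of the 30 values of the 10 members in 3 kits, 23 kept their direction and their side of the threshold with TMM factors, 23 with edgeR, 24 with DESeq2, 26 in 1 fit of all 18 libraries, 28 with at least 10 counts in 3 libraries, and 30 with no filter, which removed no gene. Nos2 did not pass the filter of 10 counts in TruSeq and has no value there. Of the 45 values of the 15 pathway genes, 38 kept theirs with TMM factors and 32 to 37 when 1 mouse was left out. The cause of these shifts was not tested, beyond the fewer samples of the fits that leave out a mouse.

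The members called lower moved most. In Pico they went from 2 to 1 with TMM factors, edgeR, DESeq2 and 1 fit of 18 libraries, in V4 from 2 to 0 with TMM factors and edgeR, and in TruSeq from 5 to 2 with TMM factors, edgeR and DESeq2 and to 3 in 1 fit of 18 libraries. When 1 mouse was left out, Pico called 1 to 2, V4 0 to 2 and TruSeq 2 to 3. Over all genes, V4 had 649 called higher and 1337 lower, against 1129 higher with DESeq2, 874 lower with TMM factors, and 1469 higher and 3229 lower in 1 fit of 18 libraries. TruSeq had 4232 called lower, against 2776 with DESeq2 and 2625 in 1 fit of 18 libraries. Leaving out 1 mouse gave Pico 741 to 971 genes higher and 1024 to 1632 lower, V4 341 to 589 and 567 to 1504, and TruSeq 1809 to 2166 and 3239 to 3585.

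Some directions turned, none of them of a called value. Gclc in V4 was -0.18 without mouse U9576 and -0.22 without mouse I9582, with up to 0.21 without another mouse. Nfe2l2 in V4 was 0.00 with DESeq2 and 0.07 without mouse I9583, and down to -0.41 without another. Nfe2l1 in V4 was 0.14 with DESeq2, 0.16 with TMM factors, 0.14 with edgeR, and 0.18, 0.09 and 0.02 without mouse U9575, I9579 and I9582, and down to -0.20 without another.

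With the mouse as a replicate block, the difference in response between Pico and TruSeq gave 1 gene in place of 0, and 0 members in each pair of kits, so the pairing changed no call of a member. DESeq2 gave 4, 72 and 17 genes for the pairs of Pico with TruSeq, V4 with TruSeq and Pico with V4, with no adjusted p for Nos2 in the last, and leaving out mouse U9576 gave 59 for the V4 and TruSeq pair and 39 for the pair of Pico with V4, against 0 in all 3. Within a kit no paired analysis was possible because IL-1β and saline were given to different mice. Low counts limit Nos2 most, at 9 to 73 reads in a treated library.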
